A study of Mus musculus with 8 samples.

Results

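Interferon-stimulated genes are genes whose transcription rises when a cell senses interferon, and 35 of them were followed here across 4 stages of fat cell formation in culture. They were chosen by symbol, as the rows of the deposited table that carry one of 35 names of known interferon-stimulated genes, and all 35 were found once among 22798 genes. Rows were matched by symbol alone, but the 35 names were chosen with earlier results of these data known. The cells were 3T3-L1, an established mouse line of fibroblast-like preadipocytes that hormones can turn into fat cells, and no gene was altered in any group. RNA-seq was done on 8 libraries, 2 per stage. Proliferation libraries came from dividing cells, and quiescence libraries from cells kept confluent for 48 hours. Clonal expansion was sampled 10 hours after a cocktail of hormones was added, and differentiation on day 6 after that addition. It contained insulin at 5 µg/µl as the labels write it, dexamethasone, a glucocorticoid, at 1 µM, and isobutylmethylxanthine, which raises cyclic AMP, at 0.25 mM. Cells of the last stage had the cocktail for 48 hours and insulin alone after that. The labels name no interferon treatment at any stage. Within a stage the libraries are labelled experiment 1 and experiment 2. Nothing in the labels says that these were separate cultures, and p-values then reflect the spread of the libraries alone, which may be technical. A value is a pseudo-count, a read count that the authors adjusted between libraries with edgeR, and library totals still differed. The log2 fold changes (log2FC) below are of the value + 1.

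Type I interferons act through the receptor chains Ifnar1 and Ifnar2 and the kinases Jak1 and Tyk2, which phosphorylate STAT proteins, Stat2 among them. Stat2 and Irf9 are parts of a complex that binds the interferon-stimulated response element (ISRE) in promoters. Interferon gamma acts through Ifngr1 and Ifngr2, leads to binding at the gamma-activated site (GAS) and induces Irf1, itself a factor that binds ISRE-like sequences. Many of the genes are also transcribed at a low level without added interferon, in fibroblasts among other cells. Their products sense foreign RNA, block viral translation and release, modify proteins with Isg15, and attack the membranes around intracellular microbes.

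The promoters show what several of the genes share in sequence. RefSeq promoter windows (GRCm38.p6, 250 bases before to 50 after a start site) were at hand for 26 of the 35 genes. The core of the ISRE, searched on both strands as GAAA, 2 bases of any kind and GAAA again, lay in a window of 15 of the 26, or 57.7%, against 3.63% of 11440 tested genes with a window and 3.99% of all 27025 genes with one. The GAS core, TTCNNNGAA, which reads the same pattern on both strands, lay in 8 of the 26 (30.8%), against 8.46% of the tested genes and 9.55% of all. Both were in Bst2, Eif2ak2, Igtp, Irgm2 and Oas1a, and in Bst2 the matches overlapped. Of 23 ISRE core matches, 20 began between 14 and 222 bases before the start, and 7 genes had more than 1 match. A match describes the letters and is not a shown binding site. The stretches below hold the matches of genes that fell at least 2-fold at clonal expansion against quiescence and differ in strand and number of copies. Capitals mark the ISRE and GAS cores, each stretch reads 5′ to 3′ on the strand of its gene, and coordinates are GRCm38.p6.

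Isg15, minus strand, chr4:156200855-156200916: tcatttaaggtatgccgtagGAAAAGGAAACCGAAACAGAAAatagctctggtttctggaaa
Ifit1, plus strand, chr19:34640765-34640833: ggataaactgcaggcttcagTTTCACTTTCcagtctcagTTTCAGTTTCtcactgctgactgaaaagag
Ifit3, plus strand, chr19:34583353-34583436: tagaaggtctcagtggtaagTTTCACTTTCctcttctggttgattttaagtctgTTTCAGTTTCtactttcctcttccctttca
Gbp2, plus strand, chr3:142620584-142620633: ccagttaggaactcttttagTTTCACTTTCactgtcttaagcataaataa
Gbp3, plus strand, chr3:142559979-142560034: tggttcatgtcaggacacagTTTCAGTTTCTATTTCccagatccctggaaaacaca
Irgm1, minus strand, chr11:48871421-48871470: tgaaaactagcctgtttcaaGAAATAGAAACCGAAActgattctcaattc
Irgm2, plus strand, chr11:58214882-58214942: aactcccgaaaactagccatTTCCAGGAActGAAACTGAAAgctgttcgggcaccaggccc
Igtp, plus strand, chr11:58199491-58199551: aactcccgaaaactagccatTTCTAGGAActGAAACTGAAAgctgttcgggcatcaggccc

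Isg15 had 3 overlapping ISRE cores in a row, Ifit1 and Ifit3 had 2 each in the other orientation, and Gbp2 had 1. The Irgm2 and Igtp stretches hold a GAS core followed by an ISRE core and differ at 2 of 61 bases. Medians lay close together for genes with and without a match. The median log2FC at clonal expansion against quiescence was -2.40 in the 15 genes with an ISRE core and -2.23 in the 11 with a window but no match, and at differentiation against quiescence it was -1.13 and -1.29. These medians are a description, with no test. Eif2ak2, whose match lies 19 bases after the start, is the gene among the 15 that was not called at clonal expansion against quiescence. Ddx58 and Ifih1, whose matches lie 3 and 33 bases after the start, both fell in that comparison (log2FC -1.93 and -2.40).

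Libraries summed to 122413485 to 151529060 pseudo-counts. The labels of clonal expansion and differentiation were checked on marker genes. Levels of cycling genes in the proliferation libraries are not given here. Rrm2, a DNA synthesis gene, was at 70532 and 66055 at clonal expansion, against 4693 and 4070 at quiescence. Mki67, a marker of cycling cells, was at 14629 and 12322 at clonal expansion, against 14127 and 14537 at quiescence, and was not called. Fkbp5, a glucocorticoid target, was at 85567 and 82102 at clonal expansion, against 5688 and 5563 at quiescence, and Adipoq, the fat cell hormone adiponectin, was at 485712 and 532404 at differentiation and at most 910.2 elsewhere. Proliferation 1 stood above proliferation 2 in 33 of the 35 interferon-stimulated genes, by a median of 0.54 on the log2 scale, while over all genes tested this library was higher in 50.5%. In each of the other stages experiment 1 was higher in 21 of the 35. Of 23 marker genes of blood cells in the table, 11 stayed below 10 in every library, among them Ptprc and Itgam, and Cd3e, Ms4a1 and Siglech were listed at 0. The summed level of the 23, most of it from Lyz2 and Cd14, was 5753 and 4991 in dividing cells, 7455 and 5748 at quiescence, 4770 and 3521 during clonal expansion and 1630 and 1569 after differentiation. Of 12 endothelial markers 4 stayed below 10, Cldn5, Erg, Kdr and Tie1, and the sum was between 681.9 and 1046 in all libraries. Single markers moved at clonal expansion against quiescence: of the 7 endothelial markers tested Tek, Vwf, Pecam1 and Plvap fell and Cdh5 rose, and of the 9 blood markers tested Aif1, Lyz1 and Lyz2 fell and Cd68 and Itgax rose. The log2FC was -2.45 for Tek and -2.94 for Aif1. The part of either list in the results was not tested.

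Together the 35 genes took 0.0706% and 0.0561% of the proliferation libraries, 0.0725% and 0.0743% of the quiescence libraries, 0.0351% and 0.0339% of those of clonal expansion, and 0.0402% and 0.0400% of those of differentiation. Abundant genes weigh most in these sums, which do not give the typical change of a gene. Trim25 and Eif2ak2 held 19095 and 9163 of the 53188 summed in clonal expansion 1. In quiescence 1 they held 12508 and 7736 of 92382. In these bulk samples fewer expressing cells and less RNA per cell cannot be told apart. Levels between genes can be compared only per length, and per kilobase of the longest annotated transcript at quiescence they ran from 3.90 for Rsad2 to 7471 for Bst2 among the 34 genes with a length, Mx1 having none. After Bst2, the surface protein tetherin that holds budding virus on the cell, came Irf1 at 4280, Trim25 at 2459, Ifi35 at 2272, Ddx58 at 2181 and Eif2ak2 at 1991. Oas1a, at 13.1, was the lowest after Rsad2.

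**Figure D1:**
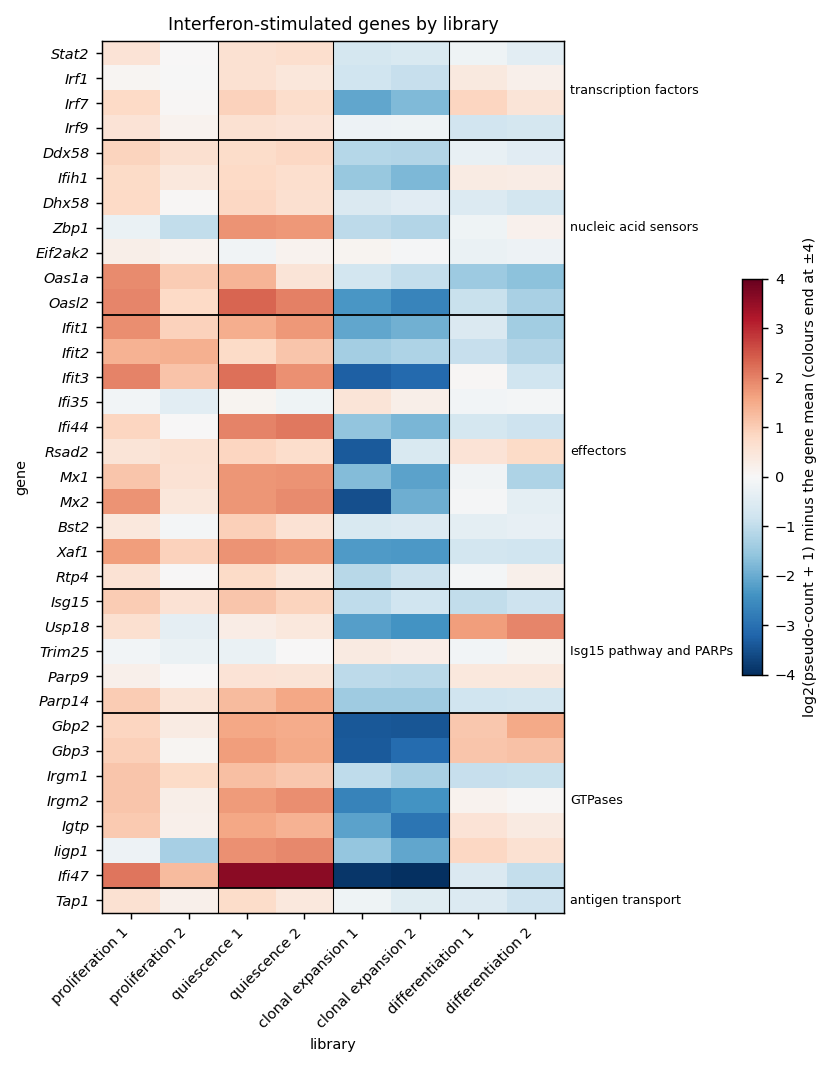
Each row is an interferon-stimulated gene, ordered by role, and each column a library, in the order of the stages. Colour is log2(pseudo-count + 1) minus the gene's mean over the 8 libraries, with colours ending at ±4. The 2 clonal expansion columns are the lowest for most rows. Trim25, Ifi35 and Eif2ak2 are not below quiescence there, and Irf9, Tap1, Oas1a, Dhx58 and Eif2ak2 have their lowest mean at differentiation.

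At 10 hours after the cocktail, most interferon-stimulated genes were far below their quiescent level. Relative to quiescence, 32 of the 35 fell, 30 of them at least 2-fold, 2 rose (Trim25 and Ifi35) and Eif2ak2 was not called. Calls are at an adjusted p under 0.05 over the 14647 genes tested, with limma and Benjamini-Hochberg adjustment. Of all genes tested 68.8% were called in this comparison, 34.4% lower and 34.4% higher. A fall of at least 2-fold, called or not, was seen in 2975 of the 14647. The median log2FC was -2.66 over the 35 genes and -0.006 over all genes tested.

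All 7 GTPases that act on the membranes around intracellular microbes fell, with a median log2FC of -4.32. Ifi47, an immunity-related GTPase also called Irg47, was at 4.76 and 1.34 at clonal expansion, against 1045 and 1045 at quiescence. Gbp2, a guanylate-binding protein, was at 73.2 and 70.7 at clonal expansion, against 2241 and 2181 at quiescence, and its neighbour Gbp3 was at 27.3 and 33.2 at clonal expansion, against 922.8 and 826.5 at quiescence. The groups were far apart in all 3 genes. The log2FC was -8.16 ± 0.42 (SE) for Ifi47 (limma, adjusted p = 2.97e-07), -4.92 ± 0.20 for Gbp2 (adjusted p = 8.81e-08) and -4.81 ± 0.27 for Gbp3 (adjusted p = 3.98e-07). Ifi47 was so low at clonal expansion that its fold change rests on the added constant, and with 10 in place of 1 its log2FC was -6.35. Irgm2 (log2FC -4.32), Igtp (-4.01) and Iigp1 (-3.68), also immunity-related GTPases, fell next, and Irgm1, which regulates the others, fell by 2.30 on the log2 scale.

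Of 11 antiviral effectors 10 fell, and the median over the 11 was -3.60. Ifit3, which with Ifit1 and Ifit2 binds viral RNA and blocks its translation, was at 23.5 and 26.2 at clonal expansion, against 1080 and 832.6 at quiescence (log2FC -5.20 ± 0.33, limma adjusted p = 8.68e-07). Mx2, a dynamin-like GTPase that blocks viruses, was at 4.72 and 16.2 at clonal expansion, against 222.1 and 242.8 at quiescence (log2FC -4.56 ± 0.53, limma adjusted p = 3.54e-05). In both genes the stages did not overlap. Xaf1, a proapoptotic protein (log2FC -4.02), Ifi44 (-3.75), Mx1 (-3.73) and Ifit1 (-3.60) also fell. Rsad2, the antiviral enzyme viperin, was listed at 0 and at 5.68 at clonal expansion, against 17.2 and 15.5 at quiescence, and such low values make its log2FC of -2.74 ± 0.73 imprecise. Ifit2, Rtp4 and Bst2 fell by 2.23, 1.59 and 1.35. Ifi35, a protein of the cytoplasm and nucleus that interferon induces, was at 4493 and 3717 at clonal expansion, against 3396 and 2792 at quiescence. It rose by a log2FC of 0.41 ± 0.15 (limma adjusted p = 0.031).

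Of 7 sensors of foreign nucleic acid 6 fell, with a median of -1.93 over the 7. Oasl2, of the oligoadenylate synthetase family, was at 42.5 and 33.7 at clonal expansion, against 1096 and 874.9 at quiescence (log2FC -4.66 ± 0.34, limma adjusted p = 1.79e-06). The RNA helicases Ifih1 (MDA5), Ddx58 (RIG-I) and Dhx58 (LGP2) fell by 2.40, 1.93 and 1.25 on the log2 scale, Zbp1, a sensor of Z-form nucleic acid, by 2.87 and Oas1a, a low gene, by 1.81. Under quantile normalization Oas1a was not called (log2FC -1.03, limma adjusted p = 0.0793), which left 31 lower genes. Eif2ak2, the kinase PKR that stops translation on binding double-stranded RNA, was at 9163 and 8200 at clonal expansion, against 7736 and 9436 at quiescence. Those ranges overlapped, and its log2FC was 0.02 ± 0.12 (limma adjusted p = 0.884).

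All 4 transcription factors fell, with a median log2FC of -1.34, as did 4 of 5 genes of the Isg15 system and the ADP-ribosyltransferases, with a median of -1.91 over the 5. The roles were not tested against each other. Irf7, which drives interferon genes, was at 69.0 and 86.0 at clonal expansion, against 560.4 and 481.1 at quiescence (log2FC -2.74 ± 0.26, limma adjusted p = 9.28e-06). Irf1 fell by 1.39, Stat2 by 1.29 and Irf9 by 0.76 on the log2 scale (limma adjusted p = 3.52e-06, 6.21e-05 and 0.00081). Irf9 had the smallest fall of the 32, at 2369 and 2420 at clonal expansion against 4128 and 3958 at quiescence. Isg15, a ubiquitin-like protein, was at 296.8 and 347.7 at clonal expansion, against 1298 and 1122 at quiescence (log2FC -1.91 ± 0.19, limma adjusted p = 1.09e-05). Usp18, which removes Isg15 from proteins and restrains the type I receptor, fell by 2.66 on the log2 scale, and the ADP-ribosyltransferases Parp14 and Parp9 by 2.82 and 1.59. Tap1, a peptide transporter for antigen presentation, fell by 0.91. Trim25, the ubiquitin ligase that activates RIG-I, was at 19095 and 17857 at clonal expansion, against 12508 and 14982 at quiescence, and rose by a log2FC of 0.43 ± 0.12 (limma adjusted p = 0.00895).

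The 32 falls were called with each library left out in turn. With every library scaled to the same total, which moved the median of all genes to -0.24 and split all calls into 3763 higher and 6312 lower, neither Trim25 nor Ifi35 was called, at a log2FC of 0.20 and 0.17. Neither was called under quantile normalization or without clonal expansion 1, and the call of Ifi35 was also lost without quiescence 2 or either differentiated library.

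On day 6 most of the genes were higher than at 10 hours. Relative to clonal expansion, 23 of the 35 were higher at differentiation, 20 of them at least 2-fold, 3 were lower and 9 were not called. Of all genes tested 73% were called, 36.8% higher and 36.2% lower. A rise of at least 2-fold, called or not, was seen in 3447 of the 14647. The median log2FC was 1.11 over the 35 genes and -0.0003 over all genes tested. Under quantile normalization, which moved the median of all genes to -0.12, the median of the 35 was 0.42, with 15 called higher and 5 lower. That fit called 4709 of the 14647 genes tested higher and 5824 lower.

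Gbp2 was at 1627 and 2187 at differentiation, against 73.2 and 70.7 at clonal expansion (log2FC 4.69 ± 0.20, limma adjusted p = 2.37e-08). Gbp3 was at 629.4 and 650.9 at differentiation, against 27.3 and 33.2 at clonal expansion (log2FC 4.37 ± 0.27, adjusted p = 2.46e-07). Usp18 was at 878.0 and 1059 at differentiation, against 58.2 and 51.1 at clonal expansion (log2FC 4.12 ± 0.29, adjusted p = 6.81e-07). The stages did not overlap in any of the 3 genes. Ifi47 was at 57.2 and 43.7 at differentiation, against 4.76 and 1.34 at clonal expansion, a log2FC of 3.80 ± 0.42 with 1 added (limma adjusted p = 1.9e-05) and 2.22 with 10 added. Igtp was at 396.4 and 347.3 at differentiation, against 59.8 and 34.5 at clonal expansion (log2FC 3.00 ± 0.31), and Ifit3 at 243.6 and 133.6 at differentiation, against 23.5 and 26.2 at clonal expansion (log2FC 2.81 ± 0.33), with limma adjusted p = 1.1e-05 and 2.94e-05.

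The other rises were of Irgm2 (log2FC 2.63), Irf7 (2.62), Rsad2 (2.62), Mx2 (2.53), Iigp1 (2.52), Ifih1 (1.97), Xaf1 (1.498), Parp9 (1.49), Oasl2 (1.40), Mx1 (1.26), Irf1 (1.15), Zbp1 (1.11), Rtp4 (1.03), Ifit1 (1.02), Ifi44 (0.93), Ddx58 (0.78) and Parp14 (0.65). By role, 6 of 7 GTPases, 8 of 11 effectors, 4 of 7 sensors and 2 of 4 transcription factors rose, beside the 36.8% of all genes that did, and the roles were not tested against each other. Without differentiation 1, Ifit1, Ifi44 and Mx1 were no longer called, and without differentiation 2 Parp14, Rsad2 and Zbp1 were not. Leaving out a clonal expansion library also ended the calls of Ifit1 (library 1), Ifi44 and Mx1 (library 2).

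Irf9, the DNA-binding part of the type I complex, was at 1616 and 1687 at differentiation, against 2369 and 2420 at clonal expansion, and fell by 0.54 ± 0.14 on the log2 scale (limma adjusted p = 0.00581). Ifi35 and Trim25, the genes that had risen at clonal expansion, fell by 0.47 and 0.31 (limma adjusted p = 0.0152 and 0.0393). Both of those calls were lost without clonal expansion 1 or differentiation 1, that of Ifi35 also without differentiation 2 and that of Trim25 also without clonal expansion 2. Isg15 stood at 305.9 and 340.7 at differentiation, against 296.8 and 347.7 at clonal expansion, with overlapping ranges and a log2FC of 0.01 ± 0.19 (limma adjusted p = 0.974), a value that was -0.58 and called lower under quantile normalization and -0.15 with the trend on transcript length removed. Stat2 was at 4833 and 4067 at differentiation, against 3326 and 3547 at clonal expansion, a log2FC of 0.37 ± 0.16 that was not called (limma adjusted p = 0.0648). Without either proliferation library it was called, at adjusted p = 0.0185 and 0.0183. The other genes not called were Oas1a, Tap1, Eif2ak2, Dhx58, Bst2, Ifit2 and Irgm1, with log2FC between -0.69 and 0.25.

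**Figure D2:**
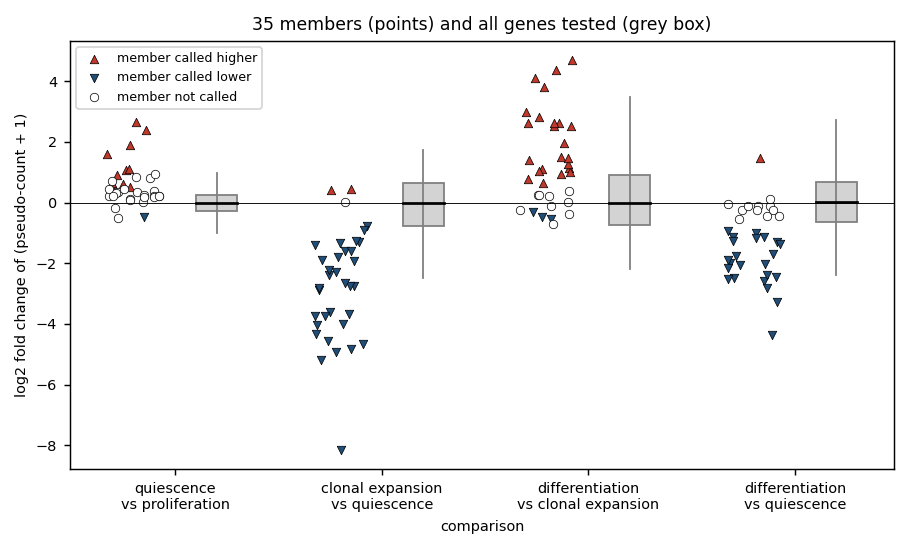
Log2 fold change of each of the 35 genes (points) in the 4 comparisons of stages, beside all 14647 genes tested (grey boxes, quartiles, with whiskers at the 5th and 95th percentiles). The median of the 35 is -2.66 for clonal expansion against quiescence and 1.11 for differentiation against clonal expansion, where the median of all genes is near 0 in both.

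Set against quiescence instead, the differentiated cells held less of most of these transcripts: 23 of the 35 were lower, 22 of them at least 2-fold, 1 was higher and 11 were not called. Of all genes tested 66.3% were called, 32.9% lower and 33.4% higher. A fall of at least 2-fold, called or not, was seen in 2599 of the 14647. The median log2FC was -1.27 over the 35 genes and 0.006 over all genes tested. This comparison shares the differentiated libraries with the preceding one and the quiescent libraries with the first. Scaling to the same total moved the median of all genes to -0.23 and split all calls into 3787 higher and 6326 lower. Of the 35 genes 29 were then lower and 1 higher.

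The gene that ended above was Usp18, the brake on the type I receptor. It was at 878.0 and 1059 at differentiation, against 334.9 and 363.1 at quiescence, or 277% of the quiescent mean (log2FC 1.46 ± 0.29, limma adjusted p = 0.00126). Both differentiated libraries were above both of every other stage, where the highest value was 426.6. It was called higher with each library left out in turn.

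The 23 lower genes stood at 4.83% to 52.8% of their quiescent mean at differentiation, with a median of 24.99%. Ifi47 was at 57.2 and 43.7 at differentiation, against 1045 and 1045 at quiescence (log2FC -4.36 ± 0.42, limma adjusted p = 8.62e-06). Oasl2 was at 116.8 and 87.6 at differentiation, against 1096 and 874.9 at quiescence (log2FC -3.26 ± 0.34, adjusted p = 1.51e-05). Ifi44 was at 88.7 and 81.9 at differentiation, against 579.7 and 637.6 at quiescence (log2FC -2.82 ± 0.27, adjusted p = 8.81e-06). At differentiation these 3 were at 4.83%, 10.4% and 14.0% of their quiescent mean. Ifit1, at 135.3 and 77.2 at differentiation against 563.6 and 681.3 at quiescence, fell by 2.59 ± 0.34 on the log2 scale (limma adjusted p = 7.15e-05), and Xaf1, at 154.6 and 147.5 at differentiation against 910.3 and 837.7 at quiescence, by 2.52 ± 0.24 (adjusted p = 7.57e-06). Oas1a, at 3.68 and 3.10 at differentiation against 32.2 and 17.4 at quiescence, fell by 2.50 ± 0.46 (limma adjusted p = 0.000781), values so low that the size is uncertain.

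The rest of the lower group held Mx1, Ifit3, Parp14, Irgm1, Mx2, Ifit2, Isg15, Zbp1, Irgm2, Dhx58, Irf9, Tap1, Iigp1, Ddx58, Bst2, Igtp and Stat2, with log2FC between -2.46 for Mx1 and -0.93 for Stat2. Isg15 was at 305.9 and 340.7 at differentiation, against 1298 and 1122 at quiescence (log2FC -1.90 ± 0.19, limma adjusted p = 8.86e-06). Irf9 fell by 1.29 and Stat2 by 0.93 on the log2 scale (limma adjusted p = 1.92e-05 and 0.000597). Igtp, Iigp1 and Mx2 were no longer called without differentiation 2, and Igtp also without differentiation 1 or quiescence 1.

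The 11 genes not called stood at 68.0% to 109% of the quiescent mean, with a median of 86.2%. Among them, Gbp2 and Gbp3 were at 86.2% and 73.2% after a fall to 3.25% and 3.46% at clonal expansion, and Irf7 was at 92.5% after 14.9%. Irf7 measured 537.9 and 425.3 at differentiation, against 560.4 and 481.1 at quiescence, with overlapping ranges and a log2FC of -0.12 ± 0.26 (limma adjusted p = 0.706). Irf1 was at 8310 and 7183 at differentiation, against 9623 and 8669 at quiescence (log2FC -0.24 ± 0.11, limma adjusted p = 0.0859). It was called lower with the same total per library (limma adjusted p = 0.00349) and under quantile normalization (0.0137). The length correction (0.0132) and the replicate block (0.0369) also gave that call. With the same total per library, Eif2ak2, Gbp3, Ifih1, Parp9 and Rtp4 were called lower too. Parp9, Rsad2, Ifih1 and Rtp4 were at 93.4%, 91.3%, 74.1% and 68.0%, and Ifi35, Trim25 and Eif2ak2 at 95.4%, 109% and 84.5%. A call that misses the threshold does not show that a gene was back at its quiescent level.

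Within families some genes ended at different shares of quiescence and others at similar ones, and genes were not tested against each other. On chromosome 11 (mm9), Irgm2 (58028479 to 58036285) and Igtp (58013058 to 58021094) are neighbours with near-identical promoter stretches, and were at 30.8% and 49.6% of quiescence at differentiation. Irgm1 (48678751 to 48684848) and Ifi47 (48908891 to 48910473), on the same chromosome, were at 24.0% and 4.83%. On chromosome 19, Ifit1, Ifit2 and Ifit3 lie between 34625184 and 34724499 and were at 17.1%, 24.99% and 19.7%, while on chromosome 16 Parp9 and Parp14, which lie between 35832964 and 35972707, were at 93.4% and 22.1%. These families hold similar copies, and how reads shared by copies, or by overlapping genes on opposite strands in unstranded libraries, were assigned is not given in the sources used here.

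**Figure D3:**
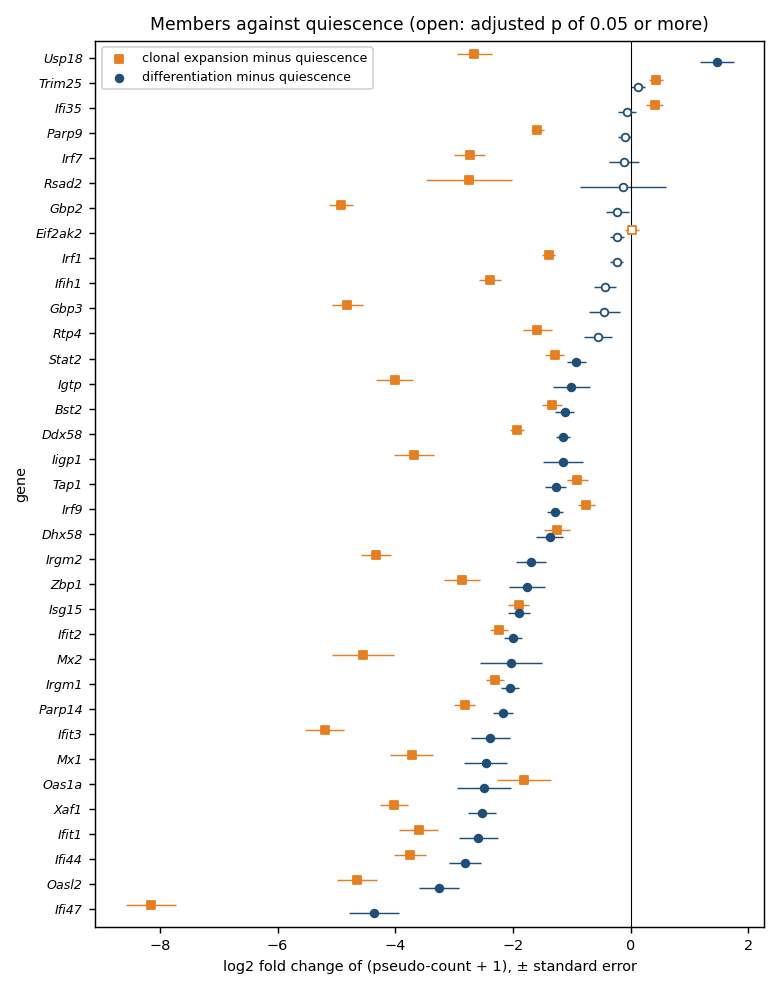
Log2 fold change at clonal expansion and at differentiation, each against quiescence, with bars of ± 1 SE, for the 35 genes ordered by their value at differentiation. Open symbols were not called at an adjusted p of 0.05. Usp18 is the gene called higher at differentiation, and Ifi47 has the lowest value in both.

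Held at confluence, the cells had higher levels of some of these genes than while dividing. Relative to proliferation, 11 of the 35 rose at quiescence, 6 of them at least 2-fold, 1 fell and 23 were not called. Of all genes tested 23.7% were called, 11.9% higher and 11.8% lower. A rise of at least 2-fold, called or not, was seen in 696 of the 14647. The median log2FC was 0.39 over the 35 genes and -0.007 over all genes tested. The 11 included 5 of the 7 GTPases. The rises depended on which dividing library was used. Without proliferation 2, the library lower in most of these genes, the median log2FC of the 35 was 0.079, beside -0.013 over all genes tested. Without proliferation 1 the median of the 35 was 0.71, beside -0.005 over all genes tested.

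Iigp1 was at 651.9 and 692.0 at quiescence, against 158.7 and 71.7 at proliferation (log2FC 2.64 ± 0.34, limma adjusted p = 0.00059). Zbp1 was at 170.1 and 162.3 at quiescence, against 39.9 and 24.1 at proliferation (log2FC 2.38 ± 0.31, adjusted p = 0.00058). Ifi44 was at 579.7 and 637.6 at quiescence, against 264.8 and 148.2 at proliferation (log2FC 1.61 ± 0.27, adjusted p = 0.00265). These 3 genes were above both dividing libraries in both quiescent ones, and the gap between the stages exceeded that between the dividing libraries. Ifi47 was at 1045 and 1045 at quiescence, against 379.2 and 207.2 at proliferation (log2FC 1.89 ± 0.42, limma adjusted p = 0.0106), Irgm2 at 1459 and 1656 at quiescence, against 977.5 and 528.2 at proliferation (log2FC 1.11 ± 0.26, adjusted p = 0.0128), and Gbp3 at 922.8 and 826.5 at quiescence, against 560.2 and 304.5 at proliferation (log2FC 1.08 ± 0.27, adjusted p = 0.0164). Gbp2, Parp14, Bst2, Irf1 and Parp9 rose by log2FC of 0.92, 0.63, 0.60, 0.50 and 0.41.

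Ifit2 fell. It was at 2046 and 2562 at quiescence, against 3155 and 3197 at proliferation (log2FC -0.47 ± 0.15, limma adjusted p = 0.0497), and the call was lost when any library but quiescence 2 was left out. Stat2, Irf9, Irf7, Isg15 and Usp18 were not called, with log2FC of 0.35, 0.23, 0.39, 0.20 and 0.21 (limma adjusted p = 0.15, 0.277, 0.307, 0.475 and 0.642). Stat2 was at 8263 and 8598 at quiescence, against 7953 and 5485 at proliferation, and Usp18 at 334.9 and 363.1 at quiescence, within its 426.6 and 213.1 at proliferation. Without proliferation 1, Stat2 and Irf9 were called higher, and without proliferation 2 the log2FC was -0.29 for Usp18 and -0.02 for Isg15.

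Upstream of these genes, transcripts of interferons were scarce at every stage. Of 19 interferon genes in the table, 17 stayed at or below 5.01 in all libraries, among them Ifnb1 and all interferon alpha genes of the list. Ifng, interferon gamma, was at 10.7 and 10.5 in dividing cells, 15.5 and 11.1 at quiescence, 10.1 and 12.8 during clonal expansion, and 24.9 and 36.7 after differentiation. Both differentiated libraries were the highest, and Ifng rose against clonal expansion (log2FC 1.34 ± 0.38, limma adjusted p = 0.00928) and against quiescence (1.15 ± 0.38, adjusted p = 0.0219). It was the only interferon gene with a mean of at least 10, the minimum for testing, and its level is low. The remaining gene of the 19 had a mean below 10 but reached at least 10 in some library.

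The type I receptor chains were not called in any comparison: Ifnar1 stayed between 13863 and 15878 and Ifnar2 between 5895 and 7354. Of 16 tested genes of receptors and signalling, 8 rose and 5 fell at clonal expansion against quiescence, 5 rose and 8 fell at differentiation against clonal expansion, and 4 rose and 5 fell at differentiation against quiescence, while at quiescence against proliferation 1 rose and none fell. The shares of all genes tested that rose and fell, in the same order, were 34.4% and 34.4%, 36.8% and 36.2%, 33.4% and 32.9%, and 11.9% and 11.8%. Ifngr1, the ligand-binding chain of the interferon gamma receptor, was at 35076 and 34073 at differentiation, against 7041 and 5924 at quiescence (log2FC 2.42 ± 0.11, limma adjusted p = 5.32e-08).

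Inhibitors of the pathway did not move alike. Socs3, which blocks JAK kinases and is induced by cytokines, was at 16824 and 15674 at clonal expansion, against 9615 and 9557 at quiescence (log2FC 0.76 ± 0.10, limma adjusted p = 8.73e-05). It then fell to 2413 and 2144 at differentiation, a log2FC of -2.84 ± 0.10 against clonal expansion (adjusted p = 7.81e-09). Socs1, the main brake on interferon gamma signalling, was not called at clonal expansion (log2FC 0.22 ± 0.16) and fell at differentiation against clonal expansion by 2.52 on the log2 scale. The phosphatase Ptpn6 went the other way, falling by 1.14 at clonal expansion and rising by a log2FC of 3.13 at differentiation against clonal expansion. Jak2 rose at clonal expansion (log2FC 1.03) and Tyk2 fell (-1.13).

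Among 16 tested genes that sense microbes and switch on interferon genes, 5 rose and 5 fell at clonal expansion against quiescence, 7 rose and 6 fell at differentiation against clonal expansion, 5 rose and 7 fell at differentiation against quiescence, and 1 rose and 3 fell at quiescence against proliferation. These counts are to be read beside the same shares of all genes, and at clonal expansion they are near them. The toll-like receptors Tlr3 and Tlr4 fell at clonal expansion by 2.38 and 2.23 on the log2 scale. Tlr7, a toll-like receptor at a low level, rose: it was at 44.1 and 63.1 at clonal expansion, against 13.1 and 9.18 at quiescence (log2FC 2.17 ± 0.50, limma adjusted p = 0.00314). In the same comparison E330016A19Rik, a RefSeq synonym of Cgas, the sensor of cytosolic DNA, rose: it was at 5462 and 6074 at clonal expansion, against 735.5 and 757.8 at quiescence (log2FC 2.95 ± 0.14, limma adjusted p = 2.01e-07). Its partner Tmem173, or STING, was at 893.6 and 1018 at differentiation, against 5003 and 4467 at quiescence, and fell by 2.31. Irf5, a factor for interferon and cytokine genes, fell by 4.40 in that comparison. Tank and Mavs, adaptors on the way to interferon gene induction, rose in it by log2FC of 1.62 and 1.40.

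Of 92 other interferon-stimulated genes, 84 were in the table and 74 were tested. At clonal expansion against quiescence 52 of them fell and 11 rose, with a median log2FC of -1.18, where 34.4% of all genes tested went each way. At differentiation against clonal expansion 41 rose and 21 fell (median 0.60, all genes 36.8% and 36.2%), at differentiation against quiescence 18 rose and 44 fell (median -0.75, all genes 33.4% and 32.9%), and at quiescence against proliferation 16 rose and 8 fell (median 0.14, all genes 11.9% and 11.8%). The largest falls at clonal expansion were of Ddx60, an RNA helicase, at 2.83 and 2.42 at clonal expansion against 214.0 and 286.2 at quiescence (log2FC -6.10 ± 0.33, limma adjusted p = 3.67e-07), and of Gbp4 (-5.20), Gbp8 (-4.78) and Gbp7 (-4.72). Trim14, an adaptor of antiviral signalling, was at 433.4 and 481.3 at differentiation, against 2.01 and 6.36 at clonal expansion (log2FC 6.60 ± 0.60, limma adjusted p = 4.46e-06). Trim14 was also above quiescence, where it was at 3.62 and 8.2. Cd274, the checkpoint ligand PD-L1, was at 3656 and 3450 at differentiation, against 163.1 and 156.4 at clonal expansion (log2FC 4.47 ± 0.14, limma adjusted p = 4.43e-09). Gbp6 rose by a log2FC of 5.13 in this comparison, and Ly6a, a surface antigen of progenitor cells, fell by 3.68.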

How the data were processed

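The 35 genes and the lists of related genes were chosen with earlier results of these data known. Total RNA of 8 libraries was sequenced from unstranded libraries as single reads of 100 nt, per the labels' protocols. The deposited values are a signal per gene, pseudo-counts that the authors made with edgeR and relative log expression factors, per the labels. CASAVA 1.8.2, edgeR and mm9 were used per the submitters' processing notes, and the aligner and gene models are not given in the sources used here. The values did not yield whole reads: 24.8% to 43.8% of low values lay within 0.05 of a whole multiple of the step, at 0.916 to 1.15 pseudo-counts per read, so no count test was run. Depth in reads is thus known only roughly, and no counting interval is given.

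Tables were handled in Python 3.11.15 (pandas 2.3.3, numpy 2.4.6). The model was fitted in R 4.3.3 by limma 3.58.1, with log2(value + 1) as outcome, stage as factor, 8 libraries and a trend of variance on the mean. Genes with a mean of at least 10 were tested (14647, all 35 included). There were 4 residual degrees of freedom, 9.78 after moderation by limma. All tests were two-sided, and p-values were adjusted by Benjamini-Hochberg over all genes tested, at a threshold of 0.05. With 2 libraries per stage no permutation test of a single gene could reach that threshold. On simulated data each comparison had 67 genes changed 1.5-fold, 67 changed 2-fold and 66 changed 4-fold, of 14647 genes. The fit recovered 20.9% to 31.3% of 1.5-fold, 55.2% to 56.7% of 2-fold and 84.8% to 86.4% of 4-fold changes over the 4 comparisons. Of the calls there, 2.54% to 6.84% were false. In the deposited values 23.7% to 73% of genes were called per comparison, and recovery with that many changes was not tested. Gene names and synonyms, promoters (GRCm38.p6) and the chromosome of each gene came from RefSeq or the file, and the longest transcript per gene from GENCODE. The genes named with full statistics were the 6 largest called changes per comparison and direction, and Stat2, Irf9, Irf1, Irf7, Isg15 and Usp18; up to 4 called genes were named per related list and direction. The genes of the printed promoters were picked among those that fell at least 2-fold at clonal expansion against quiescence, and not all are among the largest changes. Same-numbered libraries deviated together in 2 of 6 pairs of stages at a correlation over 0.1, so the number was not taken as a pairing. Alternatives were other constants, filters and scalings, no trend, a replicate block, only the stages compared, a correction for transcript length, and each library left out. Some genes of the related lists are not reported here.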

Additional observations from a re-analysis of the deposited data

How the results depend on the processing

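In each of the 4 comparisons the direction with more of the 35 genes was the same under every alternative run, but small counts moved. At quiescence against proliferation, the 1 lower gene became 0 without the filter, with quantile normalization, with no mean-variance trend and with only the 2 stages compared, where 7 genes were higher and 1942 of all genes were called. At clonal expansion against quiescence, the 2 higher genes became 0 with the same total or quantile normalization and 1 with no trend or only the 2 stages. At differentiation against clonal expansion, 15 were higher and 5 lower with quantile normalization, and 5 lower with only the 2 stages. Of all genes tested, 4709 were higher and 5824 lower with quantile normalization, and 5562 lower with only the 2 stages. Leaving out each library, where the lone sample of a stage is assumed to vary like the others, gave 3 to 17 higher, 0 to 1 lower and 1304 to 3536 called of all genes at quiescence against proliferation, 0 to 2 higher, 32 lower and 8715 to 9939 at clonal expansion against quiescence, 20 to 24 higher, 1 to 4 lower and 9419 to 11146 at differentiation against clonal expansion, and 1 higher, 20 to 25 lower and 8234 to 9637 at differentiation against quiescence.

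Over all 140 pairs of a gene and a comparison, the sign turned under some alternative in 15, none of them called as reported and none with a reported log2FC beyond 0.33 in size. For the 105 pairs that were called or are of Stat2, Irf9, Irf1, Irf7, Isg15 or Usp18, signs turned for Isg15 at differentiation against clonal expansion (-0.58 with quantile normalization, -0.15 with the length correction, and -0.11 to 0.12 with each library left out, the negative values being -0.11 without clonal expansion 1 and -0.070 without differentiation 2), for Isg15 and Usp18 at quiescence against proliferation (-0.020 and -0.29 without proliferation 2, 0.42 and 0.71 without proliferation 1) and for Irf7 at differentiation against quiescence (0.051 without differentiation 2). The cause was not tested. The experiment number as a replicate block ended no call of the 140 and added 7: Stat2, higher (adjusted p = 0.0459), and Tap1, lower, at differentiation against clonal expansion, Irf1 (adjusted p = 0.0369) and Ifih1, lower, at differentiation against quiescence, and Igtp, Mx1 and Oasl2, higher, at quiescence against proliferation, where 14 genes were then higher. The numbers correlated at 0.354 for quiescence with clonal expansion, 0.134 for quiescence with differentiation and 0.0126 to 0.0717 for the other pairs. Low values limit Oas1a, Rsad2, Mx2 and Ifi47 most.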

Other observations

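Some interferon-stimulated genes outside the 35 rose at clonal expansion. Ifi204, a nuclear DNA sensor of the p200 family, was at 34118 and 28993 at clonal expansion, against 3116 and 2741 at quiescence (log2FC 3.43 ± 0.12, limma adjusted p = 5.36e-08). Mnda and Ifi205, of the same family, rose by log2FC of 3.04 and 2.59, and Slfn2, a growth regulator of the schlafen family, by 3.18. The p200 family did not move together: Ifi203 fell by 1.21 on the log2 scale and Mndal was not called (log2FC 0.03 ± 0.19). In all 11 of the 74 rose, where 34.4% of all genes tested did. Members of this family are near-identical neighbours whose reads may be shared. At differentiation against clonal expansion Ifi204, Mnda and Slfn2 fell by 2.48, 2.42 and 2.22 on the log2 scale, and Ifi205 was not called (log2FC 0.21 ± 0.36). Slfn9 rose at clonal expansion by a log2FC of 1.94 and fell at differentiation by 3.12. These values are given with no explanation, and the genes were selected by the size of their change.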
